A study of Mus musculus with 12 samples.

Results

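Heat shock protein transcripts were examined in MC38 tumors treated with SFIH, an anti-PD-1 antibody or both. The 10 genes were Cryab, Hspb1, Hspb8, Hspa1a, Hspa1b, Hspa8, Hsp90aa1, Hsp90ab1, Hsph1 and Dnajb1, and each was the line with that symbol among the 23282 lines of the deposited count table. Cryab was chosen by its measured counts, which were high in the group that received both agents, so its values in that group are given as a description with no test. MC38 cells are a line of mouse colon carcinoma, and SFIH is a hexane fraction of Inula helenium root that is rich in sesquiterpene lactones. The cells were injected subcutaneously into the flank of female C57BL/6 mice labelled WT and 6 weeks old, an age that the methods give at purchase, with 1 week of acclimation after it. Con mice received the saline vehicle and an IgG2a antibody, SFIH mice IgG2a and 50 mg/kg of SFIH into the peritoneum each day, PD mice 200 μg of anti-PD-1 antibody 2 times a week, and Comb mice both agents. Whether the PD mice also received the vehicle is not stated in the sources used here. All tumors were labelled day 19, with 3 tumors in each of the 4 groups. Each mouse was injected in 1 flank, but how the tumors for sequencing were taken, and whether any were pooled, is not stated in the sources used here, so the p-values are read as measuring the spread between these samples.

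Heat shock proteins are chaperones that hold or refold proteins in the cell. Small heat shock proteins, such as Cryab and Hspb1, bind unfolding proteins without using ATP and keep them from aggregating, and HSP70 proteins refold clients with the help of J-domain proteins such as Dnajb1 and of exchange factors such as Hsph1. HSP90 proteins carry kinases and hormone receptors through the last steps of folding. Stress activates the transcription factor HSF1, which binds repeats of the letters GAA and their complement TTC in alternating orientation. Hspa1a and Hspa1b are the classical stress-induced HSP70 genes, whereas Hspa8 and Hsp90ab1 are expressed in most cells without stress. Cryab, also named αB-crystallin, is abundant in the lens, the heart and skeletal muscle.

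The libraries held from 7870741 to 12261032 counts (median 9932321), and 13464 genes passed the filter on low counts, all 10 heat shock genes among them. Levels are given as counts or as CPM, the usual scaling of a count by its library total. Comb replicate 3 stood apart from the other tumors. In CPM it lay below all 11 other tumors for 47.2% of the genes tested, and for 38.6% when the CPM were scaled by TMM, a normalization that allows for composition and gave this library the lowest factor, 0.76. The samples were labelled tumor cells, but the RNA came from tumor tissue. Of 10 markers of intestinal epithelium and carcinoma, Lgals4 was at 0 in every tumor, and the summed level of the list was only 4.60 to 95.5 CPM. In bulk tissue, fewer cells of a type and less RNA per cell cannot be told apart.

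The promoters of 4 of these genes hold 2 facing units of the repeat, GAANNTTC or TTCNNGAA, before the start. They are printed because Hspa1a and Hspa1b are nearly the same there and because Hspb1 differed from these 2 genes in the sign of its fitted differences from Con. Promoter sequences from RefSeq (build GRCm38.p6, 250 bases before to 50 after each start) were matched for 6 of the 10 genes, which were Hspb1, Hspb8, Hspa1a, Hspa1b, Hsph1 and Dnajb1. They were searched on both strands for GAANNTTC and TTCNNGAA, each of which is its own reverse complement, for TATAAA and for forms with 3 alternating units, which contain the shorter motifs. GAANNTTC was present in 7.89% and TTCNNGAA in 8.55% of 32544 promoters of this length, and 15.1% had either. The following stretches run from position -120 to -1 before the start, 5′ to 3′ on the strand of the gene, with the motifs in capitals. Hspb1 lies at chr5:135887799-135887918 on the plus strand, Hspa1a at chr17:34972157-34972276, Hspa1b at chr17:34959239-34959358 and Hsph1 at chr5:149636337-149636456, all on the minus strand.
Hspb1: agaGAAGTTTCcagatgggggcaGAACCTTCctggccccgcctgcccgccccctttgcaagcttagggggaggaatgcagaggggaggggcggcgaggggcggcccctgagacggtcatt
Hspa1a: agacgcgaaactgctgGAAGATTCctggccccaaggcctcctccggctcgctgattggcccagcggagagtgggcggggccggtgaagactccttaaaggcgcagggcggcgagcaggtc
Hspa1b: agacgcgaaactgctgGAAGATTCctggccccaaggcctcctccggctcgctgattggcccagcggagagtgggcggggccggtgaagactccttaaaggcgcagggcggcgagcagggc
Hsph1: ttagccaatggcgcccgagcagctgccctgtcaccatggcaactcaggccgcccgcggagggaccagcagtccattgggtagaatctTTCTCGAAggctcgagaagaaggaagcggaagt

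Hspb1 held GAANNTTC at positions -117 and -97, Hspa1a and Hspa1b held it at the same position, -104, and Hsph1, at the first of its 2 listed starts, held TTCNNGAA at -33. The promoters of Hspa1a and Hspa1b were 98.7% identical, with 4 of 300 bases different, of which 3 lay before the start. In Hspb8 GAANNTTC lay just after the start, and Hsph1 also had a 3-unit form after its start, a form found in 0.608% of all promoters. Dnajb1 held none of these letters in this window, and TATAAA, which 13.6% of promoters held, was in none of the 6. A match of letters is a description and not a measured binding site.

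Cryab had few reads in the Con tumors and more in every treated tumor. The 3 Con tumors held 19, 10 and 9 Cryab counts, the SFIH tumors 63, 30 and 27, the PD tumors 91, 66 and 45, and the Comb tumors 137, 122 and 1382. All 9 treated tumors were therefore above all Con tumors, and the Comb tumors were above all others. In CPM the Con tumors ran from 0.898 to 1.73, the SFIH tumors from 2.47 to 5.14, the PD tumors from 4.71 to 9.79 and the Comb tumors from 12.4 to 126. Neighbouring groups in this order did not overlap between Con and SFIH or between PD and Comb, whereas the highest SFIH tumor lay above the lowest PD tumor.

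Relative to the mean of the Con tumors, Cryab CPM were 2.02 to 4.2 times as high in the SFIH tumors and 3.85 to 8.0 times as high in the PD tumors. The edgeR log2 fold change of Cryab was 1.46 (SE 0.94, 95% interval -0.60 to 3.52) for SFIH against Con and 2.72 (SE 0.94, 0.65 to 4.80) for PD against Con. Neither passed the threshold of 0.05 after adjustment over all genes, with an edgeR adjusted p of 1.0 in both, and the unadjusted edgeR p were 0.148 and 0.0148. Over the alternative settings the adjusted p of Cryab ranged from 0.316 to 1 for SFIH against Con and from 0.136 to 1 for PD against Con. DESeq2 gave no adjusted p for this gene. These 2 comparisons share the Con tumors with the comparison on which Cryab was picked.

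In Comb the description of Cryab rested on 1 tumor for its size. Cryab was 11.1 and 10.1 times the Con mean in Comb replicates 1 and 2 and 103 times the Con mean in Comb replicate 3. The fitted log2 difference of Cryab between Comb and Con was 5.78 with all tumors and 3.54 without Comb replicate 3. Against PD it was 3.06 and 0.82, and against SFIH 4.32 and 2.08, with and without that tumor. The excess of Cryab in Comb over the sum of the separate log2 differences of SFIH and PD was 1.60 with all tumors and -0.64 without Comb replicate 3. Over all genes tested, 0.602% had every treated tumor above every Con tumor in CPM, and 0.0446%, or 6 genes, also had every Comb tumor above every other tumor. Cryab was the only heat shock gene among them, which the choice of this gene had fixed in part.

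Hspb1, the small heat shock protein HSP27 (HSP25 in mice), followed a similar order with more overlap. Hspb1 counts were 50, 48 and 34 in the Con tumors, 42, 84 and 88 with SFIH alone, 125, 100 and 48 with the antibody alone, and 182, 131 and 525 with both. The Comb tumors, at 13.3 to 47.8 CPM, were all above the Con tumors, at 3.39 to 4.99 CPM, and above the SFIH tumors, at 3.43 to 9.0 CPM. PD replicate 3, at 5.02 CPM, lay close to the highest Con tumor, while the other PD tumors were at 12.7 and 13.4 CPM. With TMM-scaled CPM the PD and Con tumors overlapped.

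The edgeR log2 fold change of Hspb1 was 2.97 (SE 0.64, 95% interval 1.55 to 4.38) for Comb against Con. Its edgeR adjusted p was 0.0665, so the gene missed the threshold, while DESeq2 gave an adjusted p of 0.000155. Over all settings run the adjusted p ranged from 0.000155 to 0.334. Without Comb replicate 3 the Hspb1 log2 fold change was 2.0 with an edgeR adjusted p of 0.0937, and without Comb replicate 1 it was 3.26 with an edgeR adjusted p of 0.0074, in a fit that called 28.5% of all genes. For Comb against SFIH the log2 fold change of Hspb1 was 2.38 (SE 0.62), with an adjusted p of 0.128 in edgeR and 0.0043 in DESeq2, over a range of 0.0043 to 0.466. Without Comb replicate 3 this difference was 1.42, with an edgeR adjusted p of 0.362, and without Comb replicate 1 it was 2.68, with an edgeR adjusted p of 0.0173, where 22.5% of all genes were called.

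For Comb against PD the log2 difference of Hspb1 was 1.59 (SE 0.61), with an adjusted p of 0.246 in edgeR and 0.0997 in DESeq2, over a range of 0.0621 to 0.699, and without Comb replicate 3 it was 0.63. For PD against Con it was 1.37 (SE 0.62, 95% interval 0.01 to 2.73), and for SFIH against Con 0.59 (SE 0.62, -0.77 to 1.94). The SFIH value was 0.19 without SFIH replicate 3 and 0.91 without SFIH replicate 1. Neither of the differences from Con passed the threshold, at an edgeR adjusted p of 1.0. The interaction term between SFIH and the antibody, which is the excess in Comb over the sum of the separate log2 differences, was 1.01 (95% interval -0.88 to 2.89, edgeR adjusted p = 0.894) for Hspb1, and 0.05 without Comb replicate 3.

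Hspb8, which works with Bag3 in the removal of misfolded proteins, did not share this order. Its counts were 1274, 1281 and 1080 in the Con tumors, 2176, 1483 and 1707 with SFIH alone, 2495, 947 and 2016 with the antibody alone, and 2079, 1550 and 570 with both. In CPM the highest tumor was PD replicate 1 at 268 and the lowest Comb replicate 3 at 51.9, so that the Comb group spanned the range of the Con tumors. The log2 fold change of Hspb8 against Con was 0.41 (95% interval -0.43 to 1.24) for SFIH, 0.83 (-0.01 to 1.67) for PD and 0.42 (-0.42 to 1.25) for Comb, none of which passed the threshold in edgeR. Without Comb replicate 3 the Comb value was 0.76, with an edgeR adjusted p of 0.176.

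**Figure D1:**
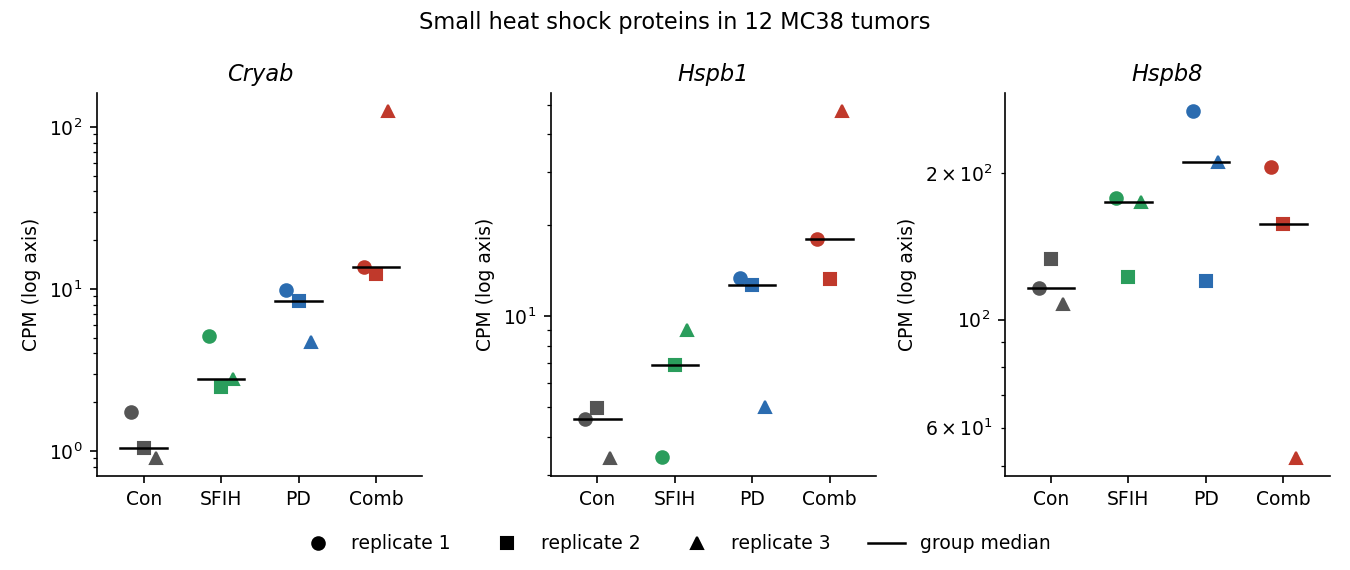
CPM of Cryab, Hspb1 and Hspb8 on log axes in each of the 12 tumors, by group. Symbols mark the replicate numbers and lines the group medians. For Cryab every treated tumor lay above the Con points, which reached 1.73 CPM, up to 126 CPM in Comb replicate 3, while Hspb8 was lowest in that tumor.

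Hspa1b, an inducible HSP70 gene, was lowest in a Comb tumor and spread widely among the Con tumors. Hspa1b counts were 112, 482 and 202 in the Con tumors, 230, 352 and 206 with SFIH alone, 114, 82 and 134 with the antibody alone, and 204, 86 and 41 with both. The PD tumors, at 10.4 to 14.0 CPM, were all below the SFIH tumors, at 18.8 to 29.0 CPM, but Con replicate 1, at 10.2 CPM, was as low as they were. Con replicate 2 had the highest level, 50.1 CPM, and Comb replicate 3 the lowest, 3.73 CPM.

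The log2 fold change of Hspa1b was -0.24 (95% interval -1.47 to 0.98) for SFIH, -1.05 (-2.29 to 0.20) for PD and -1.13 (-2.38 to 0.12) for Comb, each against Con. None passed the threshold in edgeR, where the adjusted p for Comb was 0.235 and ranged from 0.0485 to 0.765 over the settings. Without Comb replicate 1 the Comb value was -1.76, with an edgeR adjusted p of 0.0485, beside the 28.5% of all genes called in that fit. Without Con replicate 2 the values for Hspa1b were 0.61 in SFIH, -0.20 in PD and -0.27 in Comb, so the size of these differences rested on that control tumor.

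Hspa1a, whose protein is almost the same as that of Hspa1b, was near the lower end of detection. Its counts were 16, 36 and 34 in the Con tumors, 35, 19 and 15 with SFIH alone, 8, 20 and 8 with the antibody alone, and 24, 8 and 11 with both. Every group overlapped every other, and the lowest count, 8, was found in PD replicates 1 and 3 and in Comb replicate 2. The log2 fold change of Hspa1a against Con was -0.54 (95% interval -1.86 to 0.79) for SFIH, -0.89 (-2.25 to 0.47) for PD and -0.80 (-2.15 to 0.55) for Comb, and none passed the threshold in edgeR. Without Con replicate 2 the values for Hspa1a were -0.27, -0.63 and -0.54 in the same order. Within the last 500 bases of their transcripts, Hspa1a and Hspa1b shared no stretch of 75 bases, the read length, in the GENCODE M21 annotation.

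Dnajb1 encodes the J-domain protein that stimulates HSP70 during the stress response. Its counts were 1551, 1827 and 1612 in the Con tumors, 1318, 2318 and 1464 with SFIH alone, 1014, 835 and 1242 with the antibody alone, and 1372, 961 and 467 with both. All PD tumors, at 106 to 130 CPM, and all Comb tumors, at 42.5 to 136 CPM, lay below the Con tumors, at 142 to 190 CPM, whereas the SFIH tumors overlapped them. The log2 fold change of Dnajb1 was -0.14 (95% interval -0.81 to 0.53) for SFIH, -0.42 (-1.09 to 0.25) for PD and -0.63 (-1.30 to 0.05) for Comb. In edgeR the adjusted p for Comb was 0.225, over a range of 0.0631 to 0.463, and without Comb replicate 3 the difference was -0.34.

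Hspa8, the constitutive HSP70, had the narrowest range of the 10 genes relative to its level. Its counts were 10594, 8935 and 9434 in the Con tumors, 10777, 14576 and 9524 with SFIH alone, 8933, 6583 and 9805 with the antibody alone, and 11076, 9415 and 7640 with both. In CPM all tumors were between 696 and 1202, and the groups overlapped. The log2 fold change of Hspa8 against Con was 0.10 (95% interval -0.27 to 0.47) for SFIH, 0.09 (-0.29 to 0.46) for PD and 0.21 (-0.17 to 0.58) for Comb in the TMM-normalized fit, but without TMM the PD and Comb values were -0.01 and -0.04. Without TMM the median log2 difference of all genes between Comb and Con was -0.29, against -0.03 with it. Of the 75-base stretches at the end of Hspa8 transcripts, 63.8% were also present in pseudogenes, so reads of this gene could have been split or dropped in counting.

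The HSP90 genes were even across 11 tumors and low in 1. Hsp90aa1, the inducible form, had counts of 21391, 21792 and 17773 in the Con tumors, 21982, 32832 and 25415 with SFIH alone, 20335, 16942 and 20555 with the antibody alone, and 24736, 22571 and 4718 with both. Hsp90ab1, the constitutive form, had counts of 63485, 58243 and 51531 in the Con tumors, 74058, 75317 and 62132 with SFIH alone, 70081, 44402 and 71073 with the antibody alone, and 71585, 55007 and 9523 with both. Outside Comb replicate 3, Hsp90aa1 was at 1773 to 2708 CPM and Hsp90ab1 at 5141 to 7537 CPM.

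For Comb against Con the log2 difference of Hsp90aa1 was -0.02 (95% interval -0.98 to 0.94) and that of Hsp90ab1 -0.15 (-1.20 to 0.90), and without Comb replicate 3 they were 0.41 and 0.32, with edgeR adjusted p of 0.299 and 0.284. Hsp90aa1 differed from Con by 0.24 (-0.72 to 1.21) in SFIH and 0.21 (-0.75 to 1.17) in PD. Hsp90ab1 differed from Con by 0.12 (-0.93 to 1.18) in SFIH and 0.37 (-0.69 to 1.42) in PD. No value passed the threshold in edgeR. For Hsp90aa1 20.9% of the 75-base stretches at the transcript ends were shared with pseudogenes, and for Hsp90ab1 0.675%.

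Hsph1, the HSP110 exchange factor for HSP70, had counts of 3137, 3425 and 2834 in the Con tumors, 2210, 5146 and 2289 with SFIH alone, 2762, 2042 and 2722 with the antibody alone, and 3326, 1727 and 389 with both. SFIH replicate 2 was the highest tumor, at 424 CPM, and Comb replicate 3 the lowest, at 35.4 CPM. The log2 fold change of Hsph1 against Con was -0.16 (95% interval -1.30 to 0.99) for SFIH, -0.04 (-1.19 to 1.1) for PD and -0.62 (-1.77 to 0.53) for Comb. Without Comb replicate 3 the Comb value of Hsph1 was -0.155. SFIH replicate 2 was also the highest of the SFIH tumors for Hspa1b, Hspa8, Hsp90aa1 and Dnajb1, and the lowest for Cryab and Hspb8.

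**Figure D2:**
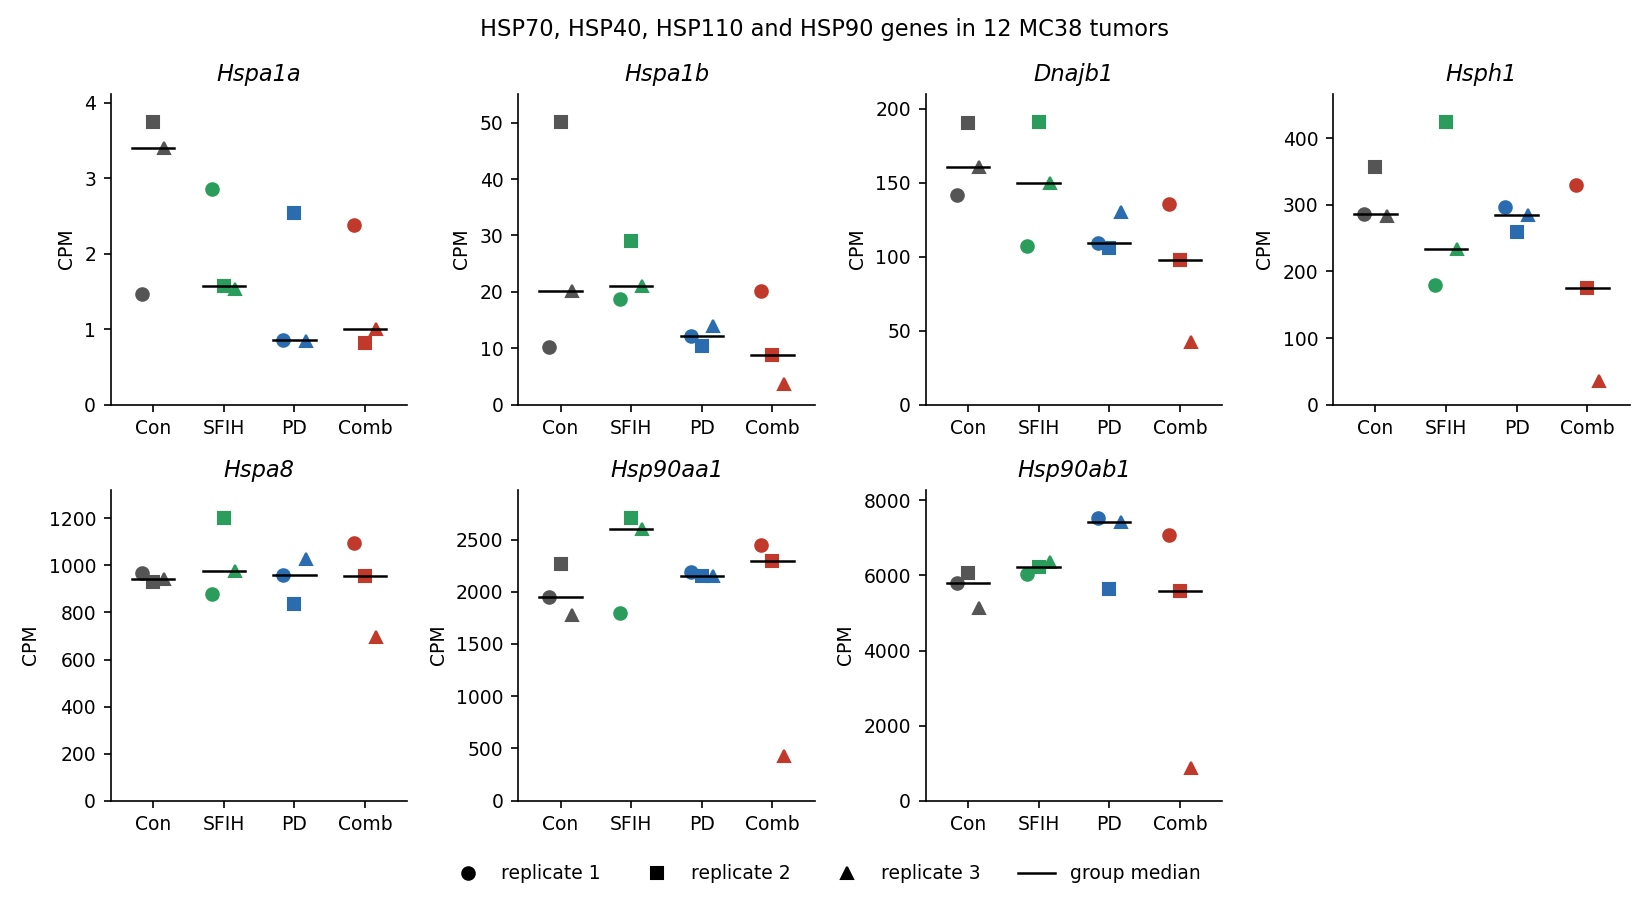
CPM of Hspa1a, Hspa1b, Dnajb1, Hsph1, Hspa8, Hsp90aa1 and Hsp90ab1 in each of the 12 tumors, by group, on linear axes that start at 0. Symbols mark the replicate numbers and lines the group medians. Comb replicate 3, the red triangle, lies at 429.65 CPM for Hsp90aa1 and 867 CPM for Hsp90ab1, far below the other 11 tumors.

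Across the 10 genes, edgeR called none at an adjusted p under 0.05 in any of the 6 comparisons, and over all genes tested 0% were called in each. For SFIH against Con 0 of 10 had an unadjusted p under 0.05, beside 2.25% of all genes, and DESeq2 called 0, beside 0.0298% of all genes. For PD against Con Cryab and Hspb1 had an unadjusted p under 0.05, or 2 of 10, beside 3.99% of all genes, and DESeq2 called 0, beside 0.0447% of all genes. Cryab was picked on a comparison with the same Con tumors, so this count was fixed in part, and Hspb1 alone remained among the other 9 genes. In the comparisons with Comb, Cryab is left out. For Comb against Con 1 of 9, Hspb1, had an unadjusted p under 0.05, beside 25.3% of all genes, and DESeq2 called 1 of 9, the same gene, beside 14.9% of all genes. A share of 1 in 9 was below the share of all genes on both counts.

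For Comb against PD Hspb1 alone of the 9 had an unadjusted p under 0.05, beside 18% of all genes, and DESeq2 called 0 of 9, beside 3.23% of all genes. For Comb against SFIH it was again Hspb1 alone, beside 19% of all genes, and DESeq2 called it too, beside 8.62% of all genes. For the interaction 0 of 9 had an unadjusted p under 0.05, beside 2.55% of all genes. Apart from Cryab and Hspb1, the log2 differences ran from -0.57 (Hsph1) to 0.12 (Hspa8) for Comb against PD and from -0.89 (Hspa1b) to 0.11 (Hspa8) for Comb against SFIH, and the interaction terms from -0.82 (Hspb8) to 0.63 (Hspa1a). Of these, the Hspa8 differences turned negative without TMM. The median log2 fold change against Con was 0.11 for SFIH and 0.15 for PD over the 10 genes, and -0.15 for Comb over the 9 genes without Cryab, beside 0.02, 0.01 and -0.03 for all genes tested in the same order.

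Counts of groups that do not overlap gave a like picture. Between SFIH and Con, Cryab alone of the 10 genes was higher without overlap in CPM, beside 7.55% of all genes, and none was lower, beside 8.85%. Between PD and Con, Cryab and Hspb1 were higher, beside 5.76% of all genes, and Dnajb1 was lower, beside 14.8%. The place of Cryab in these counts was fixed in part, because it was picked on a comparison with the same Con tumors. Between Comb and Con, Hspb1 was higher among the other 9 genes, beside 7.6% of all genes, and Dnajb1 was lower, beside 22.2%.

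**Figure D3:**
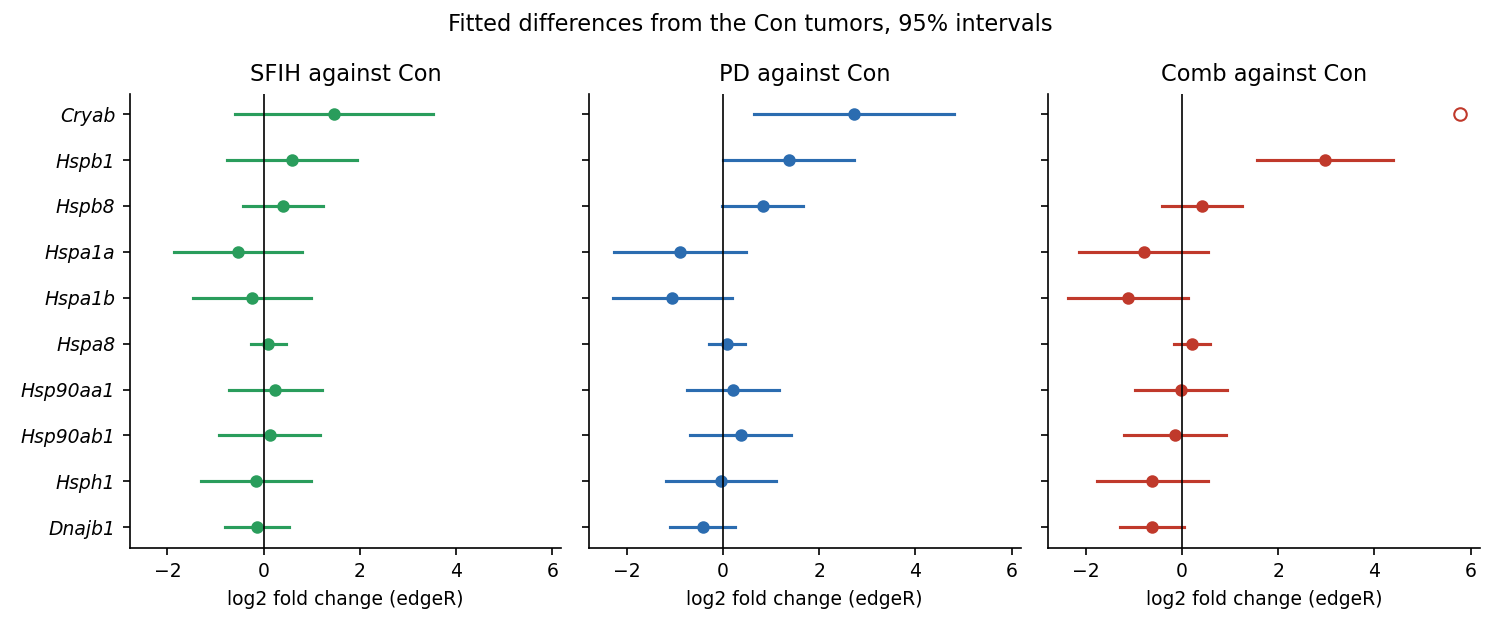
Log2 fold changes of the 10 genes from edgeR for SFIH, PD and Comb against Con, with bars for the 95% intervals. Cryab in Comb, at 5.78, is drawn as an open symbol with no bar because it was picked for its level there, and the interval of Hspb1 in Comb runs from 1.55 to 4.38.

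Comb replicate 3 was the highest tumor for Cryab and Hspb1 and the lowest for most of the other heat shock genes. Relative to the median of the other 11 tumors, its CPM were 26.7 times as high for Cryab and 6.90 times as high for Hspb1. The median of the other tumors exceeded Comb replicate 3 by 8.04 times for Hsph1, 6.99 times for Hsp90ab1, 5.09 times for Hsp90aa1, 5.02 times for Hspa1b, 3.20 times for Dnajb1 and 3.03 times for Hspb8. Over all genes tested the median ratio of Comb replicate 3 to the other tumors was 0.675, and Hspa8, with a ratio of 0.724, lay close to it. For Hspa1a 8 of the 11 other tumors lay above it. In all, 7 of the 10 genes were below every other tumor in CPM, and 6 of 10 with TMM scaling, where Hspa8 was no longer lowest. Both counts stand beside the 47.2% and 38.6% of all genes given above.

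**Figure D4:**
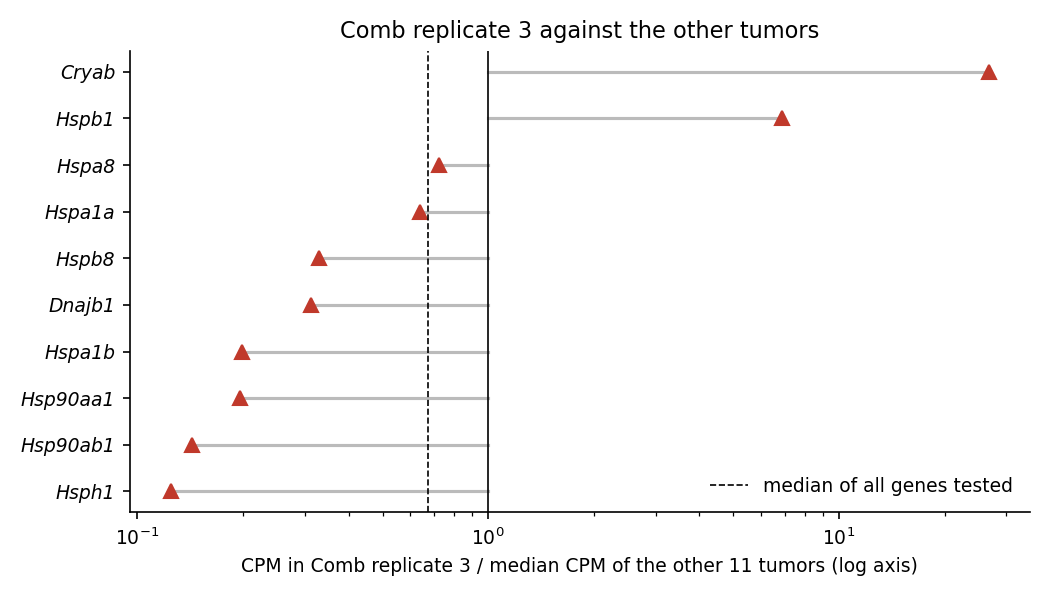
CPM of each gene in Comb replicate 3 divided by the median of the other 11 tumors, on a log axis. The solid line marks equal CPM and the dashed line the median ratio of all genes tested, 0.675. Cryab lies at 26.7 and Hspb1 at 6.90, and the other 8 genes lie to the left of the solid line, with Hspa8 and Hspa1a near the dashed one.

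Other chaperones of the cell were described from lists of related genes. Of 31 further cytosolic chaperones, cochaperones and HSF1 regulators tested, 11 were higher and 20 lower in Comb than in Con, with a median log2 difference of -0.26. In Comb replicate 3, 24 of the 31 were lowest of all tumors in CPM, beside 47.2% of all genes, and 17 with TMM scaling, beside 38.6%. Without that tumor 15 were higher and 16 lower, with a median of -0.03. None had an edgeR adjusted p under 0.05 in any comparison. By size, the largest differences between Comb and Con were 1.70 for Dnaja4, -1.53 for Hspa12b and -0.84 for Unc45a, a myosin chaperone, on the log2 scale. The first 2 genes had few reads, with 2 to 9 counts of Dnaja4 and 5 to 20 of Hspa12b in the Con tumors. Dnaja4 also differed from Con by 1.58 in SFIH and 1.78 in PD. In SFIH 18 of the 31 were higher, with a median of 0.02, and in PD 17 were higher, with a median of 0.04.

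The 8 subunits of TRiC, the ring-shaped chaperonin that folds actin and tubulin, were all lower in Comb than in Con, with a median log2 difference of -0.37, and all 8 were lowest in Comb replicate 3 both in CPM, beside 47.2% of all genes, and with TMM scaling, beside 38.6%. The summed TRiC level was 3973 to 4072 CPM in the Con tumors, 3720 to 4159 with SFIH alone and 3288 to 3981 with the antibody alone. In Comb it ran from 1165 CPM, in replicate 3, to 3838 CPM. Without that tumor 3 subunits were higher and 5 lower, with a median of -0.05, and none passed the threshold in either fit by edgeR. Cct3 had the largest fitted difference, -0.57 (SE 0.40).

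Of 15 chaperones of the endoplasmic reticulum and the mitochondria, 5 were higher and 10 lower in Comb than in Con, with a median log2 difference of -0.11. In Comb replicate 3, 10 of the 15 were lowest of all tumors in CPM, beside 47.2% of all genes, and 2 were highest. With TMM scaling 10 were lowest, beside 38.6% of all genes. The genes that were higher in Comb than in Con included Dnajb9, at 1.72 (SE 0.59), and Sdf2l1, at 1.12 (SE 0.34). These 2 encode partners of the HSP70 of the endoplasmic reticulum, and their edgeR adjusted p were 0.109 and 0.0802. Among 15 immediate early genes, which respond within minutes to stimuli and to tissue handling, 8 were higher and 7 lower in Comb than in Con, with a median of 0.02. Their summed level, however, was 642 to 845 CPM in the Comb tumors, below all tumors of the other groups, at 1045 to 1213 CPM in Con, 941 to 1319 CPM with SFIH alone and 957 to 1110 CPM with the antibody alone. With TMM scaling the Comb tumors were at 816 to 848 CPM, still below all Con and PD tumors, while SFIH replicate 2 fell within their range. These sums follow the most abundant genes, whereas the count of genes gives each the same weight. Ier3, the highest of the 15 in each Con tumor at 408 to 457 CPM, was at 259 CPM or less in Comb. The part of the lower sums in the levels of the heat shock genes was not tested. Of the 15 genes, Egr2 had the largest log2 difference between Comb and Con, at 2.67, with an edgeR adjusted p of 0.0899.

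Of 7 other small heat shock proteins, only Hspb6 and Hspb11 had enough reads to be tested. Hspb6, abundant in muscle, was at 17.3 to 18.3 CPM in the Con tumors, 14.0 to 19.7 with SFIH alone, 11.6 to 29.6 with the antibody alone, and 32.8, 6.4 and 117 in Comb replicates 1, 2 and 3. Its log2 fold change for Comb against Con was 1.96 (SE 0.78), with an edgeR adjusted p of 0.152. Hspb11 was at 21.2 to 57.1 CPM in the Con tumors, 33.0 to 56.0 with SFIH alone, 29.9 to 41.8 with the antibody alone, and 30.4, 33.4 and 13.3 in Comb replicates 1, 2 and 3, of which the last was the lowest of all tumors. The log2 difference of Hspb11 was -0.41 (SE 0.37) for Comb against Con and -0.60 (SE 0.37) for Comb against SFIH, with edgeR adjusted p of 0.488 and 0.395. The 3 Comb tumors were thus above, below and far above the Con range for Hspb6, whereas Cryab was high in all 3. Hspb2, whose gene lies head to head with Cryab and overlaps it in the annotation, had 8 counts or fewer in each tumor but Comb replicate 3, which had 40, and the sources used here do not say whether reads were counted by strand.

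Markers of other cell types differed between the same tumors. The summed level of 30 skeletal muscle genes was 57.3 to 63.1 CPM in the Con tumors, 68.6 to 134 with SFIH alone, 40.8 to 311 with the antibody alone, and 1262, 40.6 and 8681 in Comb replicates 1, 2 and 3. Of the 26 tested, 25 were higher in Comb than in Con, with a median log2 difference of 7.29, and 4.42 without Comb replicate 3. This count was fixed in part, since some of the genes, such as Pvalb, passed the filter on low counts only with their reads in Comb. The size of the median rests on very low Con levels, as for Myl1, with 0 counts in every Con tumor. Cryab and Hspb6 are themselves expressed in muscle. Of the 30 genes, 11 were at 0 in Comb replicate 2 and in PD replicate 2, 5 to 9 in the Con tumors, 1 in Comb replicate 1 and 2 in Comb replicate 3. Comb replicate 2 had the muscle level of a Con tumor or less, while its Cryab, at 12.4 CPM, was above that of every tumor outside Comb. Likewise PD replicate 2 had 40.8 CPM of muscle transcripts, the lowest of the PD tumors, and 8.39 CPM of Cryab. In SFIH and in PD the tumor with the most muscle transcripts, replicate 1 in both, at 134 and 311 CPM, was also the highest of its group in Cryab, at 5.14 and 9.79 CPM.

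The summed level of 10 fibroblast genes was 2288 to 2969 CPM in the Con tumors, 1188 to 3554 with SFIH alone, 4198 to 6497 with the antibody alone, and 3073, 10672 and 18215 in Comb replicates 1, 2 and 3. Of these, 9 were higher in Comb than in Con, with a median log2 difference of 2.57, and 1.54 without Comb replicate 3. Comb replicate 1 had a fibroblast level close to that of the Con tumors and 13.6 CPM of Cryab and 18.0 CPM of Hspb1. SFIH replicate 1 had the lowest fibroblast level of all tumors and the highest Cryab of the SFIH group, 5.14 CPM, but its Hspb1, 3.43 CPM, was at the low end of the Con range.

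The summed level of 8 smooth muscle genes was above all Con tumors in every treated tumor but PD replicate 1. It was 81.3 to 94.7 CPM in the Con tumors, 104 to 151 with SFIH alone, 90.8 to 153 with the antibody alone, and 103, 156 and 159 in Comb replicates 1, 2 and 3. Acta2, the smooth muscle actin, was at 13.0 to 17.8 CPM in the Con tumors and at 20.2 CPM or more in all 9 treated tumors. Of the 8 genes, 7 were higher in Comb than in Con, with a median log2 difference of 1.58, and 1.37 without Comb replicate 3. The largest differences were 4.52 for Des, which skeletal muscle also expresses, 3.74 for Myh11 and 2.91 for Lmod1. That of Acta2 was 2.0, and none passed the threshold in edgeR. Within SFIH and within PD, the tumor highest in Cryab, replicate 1 in both, was the lowest in the smooth muscle sum. In SFIH this was by 103.7 CPM against 104.9 CPM in the next tumor. Much of the sum was Smtn, at 50.5 to 67.2 CPM in Con, with a log2 difference of -0.65 between Comb and Con. Des was highest in replicate 1 of SFIH and of PD, at 8.48 and 7.96 CPM, whereas Acta2 was lowest there, at 29.8 and 20.2 CPM.

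The summed level of 12 leukocyte genes was 259 to 487 CPM in the Con tumors, 412 to 520 with SFIH alone, 490 to 917 with the antibody alone, and 562, 1438 and 2893 in Comb replicates 1, 2 and 3. All PD and Comb tumors were thus above the Con tumors. Of the 11 tested, 10 were higher in Comb than in Con, with a median log2 difference of 2.52, and 1.40 without Comb replicate 3. Adipocyte genes summed to 71.1 to 198 CPM outside Comb and to 89.6, 472 and 1078 CPM in Comb replicates 1, 2 and 3. Of these sums Fabp4 alone gave 38.6, 232 and 795 CPM in the same order. Keratinocyte genes reached 407 CPM in Comb replicate 3 beside 5.13 to 40.1 CPM in the other tumors. Endothelial genes summed to 88.8 to 138 CPM outside Comb and to 112 to 162 CPM in Comb, and Schwann cell genes to 4.68 to 31.3 CPM outside Comb and to 3.76 to 36.4 CPM in Comb. Erythroid genes overlapped between all groups, from 65.7 to 1842 CPM. The part of these cell types in the levels of Cryab, Hspb1 and the other heat shock genes was not tested.

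**Figure D5:**
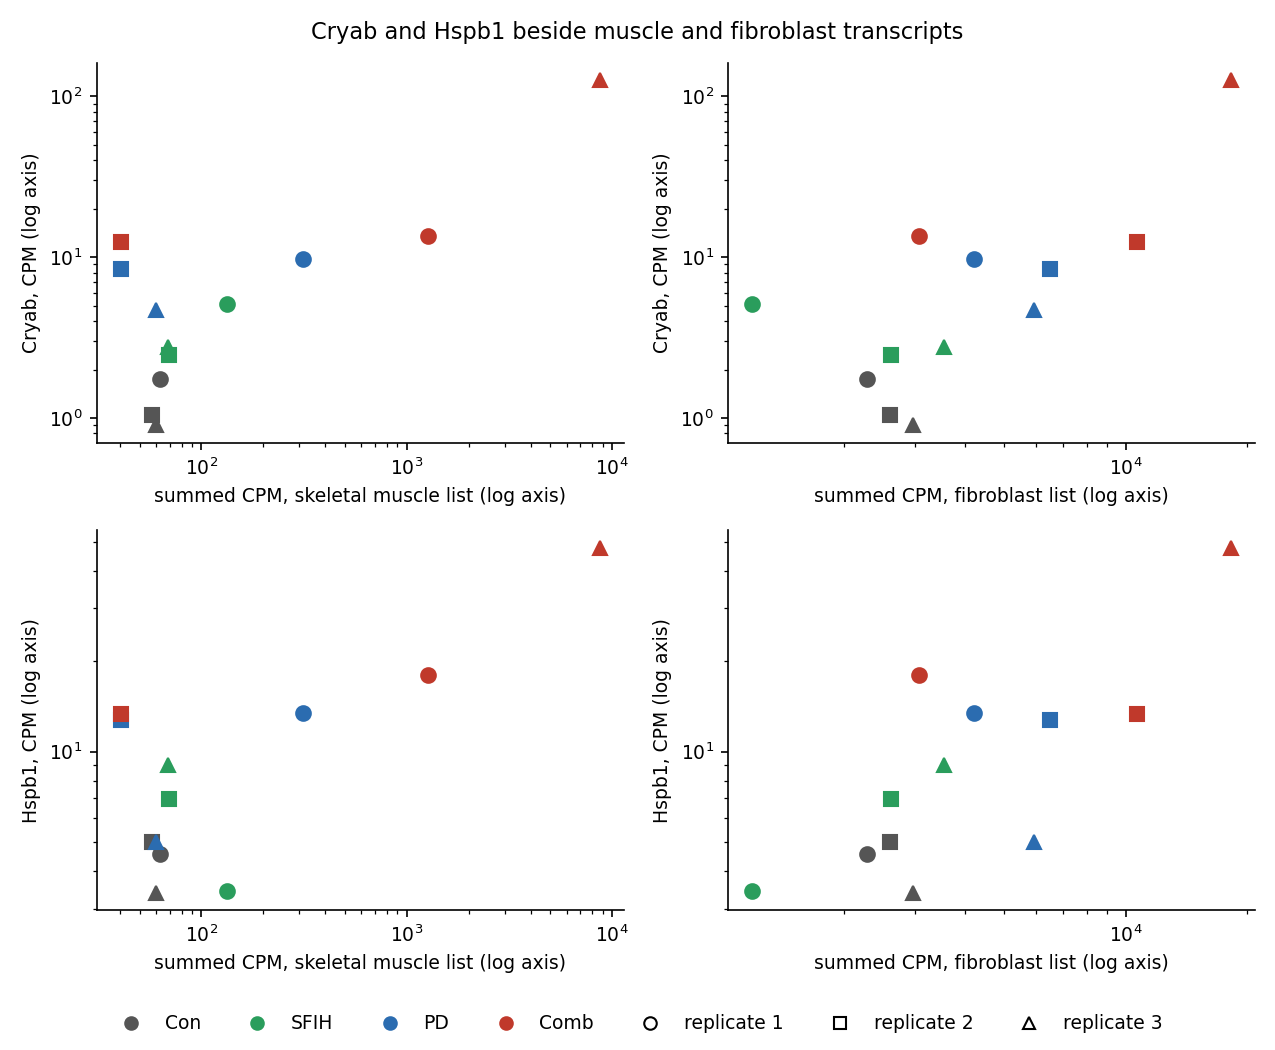
CPM of Cryab and Hspb1 in each tumor against the summed CPM of the skeletal muscle list and of the fibroblast list, all on log axes. Colors mark the groups and symbols the replicate numbers. Comb replicate 2, the red square, has 12.4 CPM of Cryab at 40.6 CPM of muscle transcripts, and Comb replicate 1, the red circle, has 13.6 CPM at 1262 CPM.

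The genes most like Cryab across the 12 tumors, by Pearson correlation of TMM-scaled log2(CPM + 1) among the genes tested, were Ccr2 (r = 0.97), Mustn1 (r = 0.97), Creld1 (r = 0.95), Kcnk6 (r = 0.95) and Ccdc28b (r = 0.95). The points share the library of each tumor, and the correlation is a description. Ccr2, a chemokine receptor of monocytes, had 228 to 390 counts in the Con tumors, 304 to 559 with SFIH alone, 584 to 627 with the antibody alone, and 986, 771 and 2877 in Comb. Without Comb replicate 3 and Con replicate 3, the tumors farthest from the median of Cryab, the r of Ccr2 was 0.96 and that of Creld1 0.85. Mustn1, a nuclear protein of muscle and skeleton, had 3 to 7 counts in Con and 35 to 210 in Comb. For Hspa1a the most alike genes were Vegfc (r = 0.87), Plekha3 (r = 0.86), Stc2 (r = 0.84), Mt2 (r = 0.83) and Stbd1 (r = 0.83).

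Hspb1 reads could also have been affected by a copy of the gene, since 36.5% of the 75-base stretches at the ends of its transcripts were shared with the pseudogene Hsp25-ps1. No such stretch of Cryab, Hspb8, Hsph1 or Dnajb1 was shared with another gene in the annotation. The annotation that the deposited counts were made with was not given in the sources used here.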

How the data were processed

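RNA of 12 tumors was sequenced with the QuantSeq 3′ mRNA-Seq kit on a NextSeq 500 as single-end reads of 75 bases. The authors deposited raw read counts per gene symbol, without normalization. The aligner, counter, genome build and annotation were not given in the sources used here. Columns were assigned to the 4 groups from the sample labels. The 10 genes and the gene lists were chosen with earlier results of these data known. Counts were tested in R 4.3.3 with edgeR 4.0.16 (filterByExpr, TMM, quasi-likelihood test, two-sided, 1 fit of 12 tumors, Benjamini-Hochberg over 13464 genes, threshold 0.05), and with DESeq2 1.42.0 as an alternative. Intervals cover 95%, and reads without molecular identifiers make counting error a lower limit. The lists are described by counts and medians. Besides the 10 genes, the text names at most the 3 genes of a list with the largest log2 difference in a comparison, and the 5 genes most correlated with Cryab or Hspa1a; Hspb2, Lgals4 and Hspb11 were named after their values were seen. Other settings were no TMM, DESeq2 size factors, no filter or a mean of 50 counts, robust dispersion, the compared groups alone, a replicate block, each tumor left out, Hspa1a and Hspa1b summed (added after seeing the data), and levels with pseudocounts of 0.5 and 5 in place of 1. The steps were tested on simulated data. Tables and figures used Python 3.11.15, pandas 2.3.3 and matplotlib 3.10.9.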

Additional observations from a re-analysis of the deposited data

How the results depend on the processing

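Cryab in comparisons with Comb, which has no test, is left out of all counts of calls here. Of the other log2 differences recomputed under each alternative, 1103 kept their direction and side of the threshold, 44 changed sign, 5 passed the threshold where they had not, and 2, of Cryab against Con in DESeq2, had no adjusted p. Of the Cryab differences with Comb, 79 stayed within 1 standard error, 3, those between Comb and each other group without Comb replicate 3, moved by more, and 1, the interaction without the same tumor, changed sign. DESeq2 called 1 gene, Hspb1, for Comb against Con and 1 for Comb against SFIH, where edgeR called 0. Among the other 9 genes, leaving out single tumors gave 0 to 2 calls for Comb against Con and 0 to 1 for Comb against SFIH, with all calls in the fits without Comb replicate 1, which called 28.5% and 22.5% of all genes. Without TMM the log2 difference of Hspa8 was -0.0067 (PD against Con), -0.044 (Comb against Con), -0.037 (Comb against PD), -0.15 (Comb against SFIH) and -0.14 (interaction), that of Hspa1a -0.0038 (Comb against PD) and that of Hspb8 -0.19 (Comb against SFIH). With no filter on low counts Hspb8 was at -0.020 (Comb against SFIH) and Hspa8 at -0.022 (interaction), and with a mean of 50 counts Hsp90aa1 was at 0.014 (Comb against Con). With the replicate number as a block Hspb8 was at -0.046 (Comb against SFIH), and the block changed no other direction or call. Levels of the low genes on the log2 scale moved with a pseudocount of 5. Of 18 pairs of tumors with the same number, 6 had a correlation over 0.1, from -0.29 to 0.41, so the numbers were not taken to pair the tumors, and 2 tumors correlated best with their own number.

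Leaving out each tumor in turn reversed some differences, and the cause was not tested. The interaction of Cryab, 1.60 with all tumors, ranged from -0.64 to 2.10 on the log2 scale. For SFIH against Con the ranges were -0.63 to 0.61 for Hspa1b, -0.010 to 0.22 for Hspa8, -0.55 to 0.089 for Hsph1 and -0.32 to 0.066 for Dnajb1. For PD against Con Hsph1 ran from -0.14 to 0.082. For Comb against Con Hsp90aa1 ran from -0.35 to 0.41 and Hsp90ab1 from -0.50 to 0.32. For Comb against PD the ranges were -0.34 to 0.87 for Hspa1a, -0.71 to 0.28 for Hspa1b, -0.56 to 0.20 for Hsp90aa1 and -0.45 to 0.079 for Dnajb1. For Comb against SFIH they were -0.25 to 0.35 for Hspb8, -0.70 to 0.048 for Hspa1a, -0.0088 to 0.22 for Hspa8, -0.59 to 0.17 for Hsp90aa1, -0.62 to 0.19 for Hsp90ab1 and -1.07 to 0.0020 for Hsph1. For the interaction they were -0.69 to 0.56 for Hspa1b, -0.085 to 0.14 for Hspa8, -1.02 to 0.046 for Hsph1 and -0.31 to 0.22 for Dnajb1.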
